A study of Mus musculus with 4 samples.

Results

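The hippocampus is built from excitatory neurons of distinct subfields, and mRNAs that mark those subfields were examined in RNA that came down with the kinesin heavy chain KIF5C. The members are 8 genes taken by name from the table of gene counts: Spink8, Wfs1 and Fibcd1 as markers of CA1, Neurod6 as a marker of pyramidal cells across the CA fields, Bok as a marker of CA3, and Prox1, Dsp and Calb1 as markers of the dentate gyrus. All 8 were found, of 37411 gene rows in all. The assignment of each gene to a subfield is background knowledge and was not measured here.

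Hippocampal lysates of adult mice, 7 to 9 weeks old, were precipitated with a kinesin antibody against KIF5C (2 libraries) or with a control mouse IgG (2 libraries). Each co-immunoprecipitation started from the hippocampi of 2 mice, and 6 co-immunoprecipitations were pooled into 2 samples, so each library comes from pooled animals. Strain and sex are not stated in the labels, and no library of input RNA was analysed here. Whether the replicates of an antibody stand for different animals is not stated either, so a p-value here speaks only of the variation among the 4 libraries, which may be technical. All groups share the tissue, the lysis in a mild detergent and the clearing of the lysate before precipitation, so a value describes RNA left in the precipitate of one antibody relative to the other.

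Excitatory signals enter the hippocampus through the granule cells of the dentate gyrus, pass over their mossy fibre axons to CA3 pyramidal cells, and reach CA1 pyramidal cells over the Schaffer collaterals. Each of these cell types keeps its own set of transcription factors, calcium-binding proteins, membrane proteins and adhesion proteins, and the mRNAs of these genes therefore stain single subfields in tissue sections. KIF5C is a neuronal member of the kinesin-1 family, which walks along microtubules and carries cargoes that include RNA-protein particles. A set of subfield markers therefore allows the 2 precipitates to be compared for messages that mark each cell population. The value of a marker need not stand for the other RNA of its cell population. In RNA from whole tissue, moreover, the number of cells of a subfield and the amount of RNA per cell cannot be told apart.

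The 2 members with the smallest adjusted p-values, both of them CA1 markers, were Spink8 (lower) and Wfs1 (with a positive value that did not pass in edgeR). Their coding sequences are shown because these messages differ in length and in base composition, both of which are taken up again beside the fold changes. Spink8 encodes a predicted secreted protein of the Kazal family of serine protease inhibitors, whose fold is held by cysteines. The first 300 bases of its 318-base coding sequence (GRCm38, chr9:109816762-109826401 with introns, plus strand, GENCODE M21) hold 6 cysteine codons, in capitals, and are 46.0% G and C. Wfs1 encodes wolframin, a membrane protein of the endoplasmic reticulum. The first 300 bases of its 2673-base coding sequence (GRCm38, chr5:36966873-36982292 with introns, minus strand) hold no cysteine codon and are 65.0% G and C. Over the whole coding sequence the share is 58.7% for Wfs1 and 45.9% for Spink8. Over the longest annotated transcript it is 57.8% for Wfs1 and 46.0% for Spink8.
Spink8: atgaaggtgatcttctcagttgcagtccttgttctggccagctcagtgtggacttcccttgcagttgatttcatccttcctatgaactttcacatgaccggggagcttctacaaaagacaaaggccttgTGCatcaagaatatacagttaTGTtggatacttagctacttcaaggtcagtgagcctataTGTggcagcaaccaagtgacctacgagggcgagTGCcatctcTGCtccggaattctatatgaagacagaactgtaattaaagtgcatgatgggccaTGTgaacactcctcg
Wfs1: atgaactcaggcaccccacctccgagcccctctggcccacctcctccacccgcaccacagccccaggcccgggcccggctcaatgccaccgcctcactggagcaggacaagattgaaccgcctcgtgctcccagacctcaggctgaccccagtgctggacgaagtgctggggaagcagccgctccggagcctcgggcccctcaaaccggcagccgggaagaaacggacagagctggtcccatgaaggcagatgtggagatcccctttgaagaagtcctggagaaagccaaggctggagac

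The 4 libraries held 11059266 to 15172432 counts. Protein-coding genes made up 75.1% of the counts in KIF5C IP 1 and 49.0% in KIF5C IP 2, against 69.4% in IgG 1 and 38.4% in IgG 2, so the libraries numbered 2 gave fewer counts to the mRNAs described here. The counterpart was mt-Rnr2, a mitochondrial rRNA, at 11.3% and 31.9% in the KIF5C IP pair and 7.36% and 32.2% in the IgG pair. Levels are given as CPM (counts scaled to a common library size) after TMM scaling, and each member had 85 counts or more in every library. A log2 fold change is KIF5C IP over IgG, and a gene was called when the adjusted p of edgeR's quasi-likelihood test, with Benjamini-Hochberg adjustment over the 14357 genes tested, was under 0.05. By that rule 4.07% of all genes tested were called, 3.33% as higher and 0.745% as lower in the KIF5C precipitate.

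Of the 8 members 1 was lower in the KIF5C precipitate, 0 were higher and 7 did not pass. At an unadjusted p under 0.05 the count was 4 of 8, beside 21.5% of all genes tested, and DESeq2 called 1 higher (Wfs1) and 1 lower (Spink8), beside 7.38% of its genes. The median log2 fold change of the members was -0.02, against -0.03 over all genes tested. Both KIF5C libraries lay above both IgG libraries for Wfs1 and Prox1 and below both for Spink8 and Bok, so 4 of 8 did not overlap, and the same held for 52.5% of all genes tested (26.3% above and 26.2% below). A share so close to that of all genes is no result about the members.

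**Figure D1:**
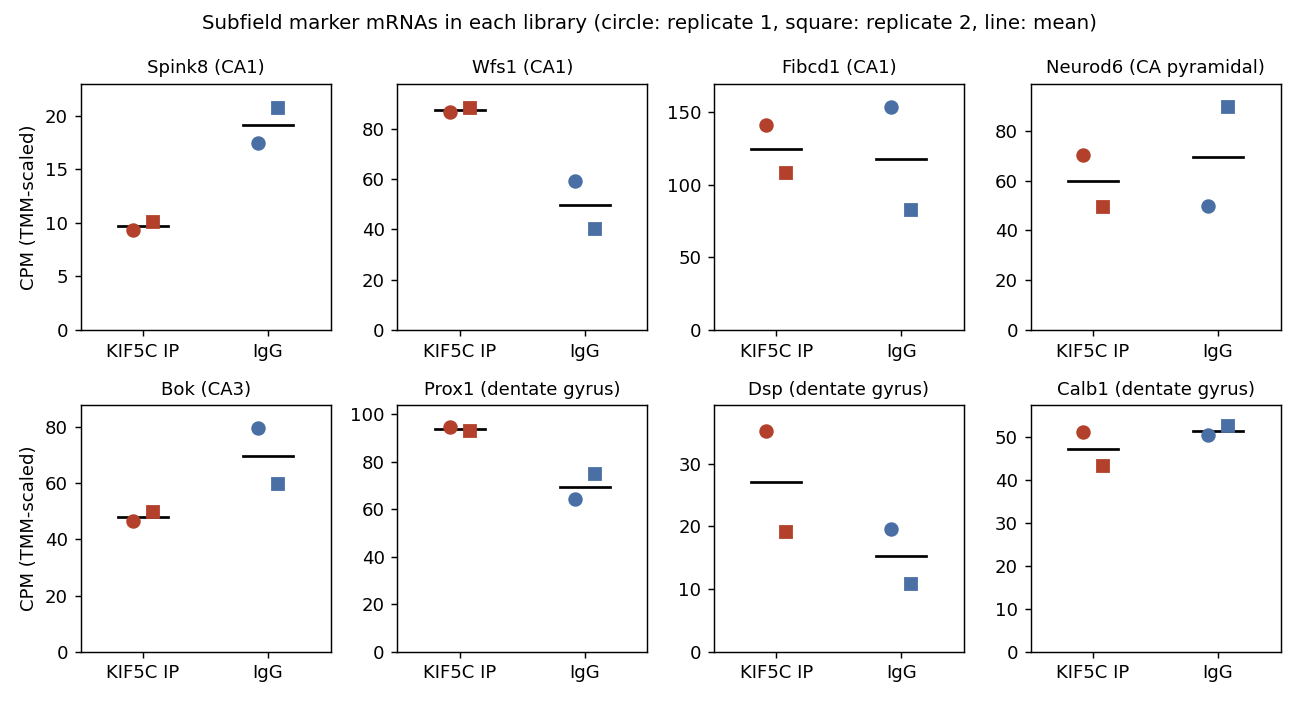
Each panel plots the level of 1 subfield marker mRNA, in TMM-scaled CPM on an axis from 0, in the 2 KIF5C IP libraries (left) and the 2 IgG libraries (right), with circles for replicate 1, squares for replicate 2 and a line at the mean. Spink8 lies at 9.29 and 10.1 CPM in the KIF5C libraries, below 17.5 and 20.7 CPM in the IgG libraries, whereas for Fibcd1, Neurod6, Dsp and Calb1 the antibodies overlap.

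Among the CA1 markers, Spink8 (chromosome 9, 109812280 to 109826633) measured 9.29 and 10.1 CPM in the KIF5C IP pair, against 17.5 and 20.7 CPM in the IgG libraries. Both KIF5C libraries were low, and the groups did not overlap. The log2 fold change was -0.97 (SE 0.23, adjusted p = 0.0286 in edgeR), or 0.509 times the IgG level. The call was lost when any of 3 libraries was left out: the adjusted p in edgeR was 0.281 without KIF5C IP replicate 1, 0.12 without KIF5C IP replicate 2 and 0.0958 without IgG replicate 2, while the log2 fold change stayed between -1.10 and -0.84 in every fit that left out 1 library. With an offset for GC content and transcript length the log2 fold change was -0.56 (adjusted p = 0.13).

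Wfs1 (chromosome 5, 36966104 to 36989205) went the other way. Levels were 86.6 and 88.2 CPM in the KIF5C IP pair, against 59.3 and 40.1 CPM in the IgG libraries. Both KIF5C libraries were high and nearly equal, and IgG 2 was the lowest. The log2 fold change of 0.81 (SE 0.23), or 1.75-fold, just missed the threshold in edgeR (adjusted p = 0.0557). DESeq2 put it at 0.82 with an adjusted p of 0.0237, and limma-voom at 0.84 with an adjusted p of 0.0448, both past the threshold. Among the edgeR fits with 1 library left out, it passed only without IgG replicate 1, at 1.13 (adjusted p = 0.00549), and it did not pass without KIF5C IP replicate 1 (adjusted p = 0.261), without KIF5C IP replicate 2 (0.183) or without IgG replicate 2, where it was 0.57 (0.196).

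In the authors' deposited table, both CA1 markers had adjusted p-values under 0.05, beside 6.9% of the genes that have one there. That table gives log2 fold changes as IgG over KIF5C, and lists 0.80 for Spink8 (adjusted p = 0.0267) and -0.72 for Wfs1 (adjusted p = 0.0239). Its linear fold column, which runs as KIF5C over IgG, lists 0.573 for Spink8 and 1.65 for Wfs1. The other 6 members have adjusted p-values of 0.148 (Dsp) to 0.896 (Fibcd1) in the authors' deposited table.

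The ratio of the 2 CA1 markers within a library does not depend on how libraries are scaled. Wfs1 stood at 9.32 and 8.73 times the CPM of Spink8 in the KIF5C IP pair, against 3.39 and 1.93 times in the IgG libraries. The ratio was higher in both KIF5C libraries than in either IgG library. That order follows from the values above, where Wfs1 was higher and Spink8 lower in both KIF5C libraries. The 2 genes were also picked for their small p-values, so the ratio is no further support. This ratio was not tested.

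The remaining CA1 marker, Fibcd1 (chromosome 2, 31813290 to 31846005), encodes a membrane receptor with a fibrinogen-like domain that binds acetylated sugars. Levels were 141 and 108 CPM in the KIF5C IP pair, against 153 and 82.4 CPM in the IgG libraries. The IgG libraries enclosed both KIF5C libraries, and replicate 1 was the higher in each group. The log2 fold change was 0.08 (SE 0.27, adjusted p = 0.902 in edgeR), and its sign depended on the libraries used: it was -0.29 when IgG 2 was left out and 0.60 when IgG 1 was.

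Neurod6 (chromosome 6, 55677822 to 55681263) encodes a basic helix-loop-helix transcription factor of pyramidal neurons. Levels were 70.4 and 49.3 CPM in the KIF5C IP pair, against 49.7 and 89.7 CPM in the IgG libraries. IgG 2 was the highest, KIF5C IP 1 lay between the IgG libraries and KIF5C IP 2 just below IgG 1. Its log2 fold change was -0.21 (SE 0.27, adjusted p = 0.687 in edgeR). Neurod6 and Fibcd1 moved apart within the IgG pair: Fibcd1 was higher in IgG 1 and Neurod6 in IgG 2.

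Bok (chromosome 1, 93685660 to 93695764), the CA3 marker, encodes a pro-apoptotic protein of the BCL-2 family. Levels were 46.5 and 49.8 CPM in the KIF5C IP pair, against 79.6 and 59.6 CPM in the IgG libraries. Both KIF5C libraries were lower than either IgG library. The log2 fold change of -0.54 (SE 0.22) did not pass in edgeR (adjusted p = 0.168), and it was negative in all 14 fits made for it, with adjusted p-values from 0.0616 to 1.00.

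Of the 3 dentate gyrus markers, Prox1 and Dsp had positive values and Calb1 lay near 0, and none passed. Prox1 (chromosome 1, 190118035 to 190170714), a homeobox transcription factor that sets granule cell identity, measured 94.6 and 93.1 CPM in the KIF5C IP pair, against 64.3 and 74.9 CPM in the IgG libraries. The KIF5C values were close to each other and both high, but the log2 fold change of 0.43 (SE 0.21) did not pass in edgeR (adjusted p = 0.254). Antisense genes overlap Prox1, of which Prox1os had 38 and 45 counts in the KIF5C IP pair, against 35 and 23 in the IgG pair, few beside 589 counts or more for Prox1. The labels do not say whether counting used strand.

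Dsp (chromosome 13, 38151294 to 38198577) encodes desmoplakin, a large desmosomal protein that in the hippocampus marks granule cells. Levels were 35.1 and 19.0 CPM in the KIF5C IP pair, against 19.6 and 10.8 CPM in the IgG libraries. KIF5C IP 2 lay just below IgG 1, so the groups overlapped, and in each group replicate 1 was the higher. Its log2 fold change was 0.82, or 1.76-fold (SE 0.30, adjusted p = 0.132 in edgeR). It passed without IgG replicate 1, at 1.34 (adjusted p = 0.00824), and without KIF5C IP replicate 2, at 1.21 (adjusted p = 0.0184), but was 0.31 without KIF5C IP replicate 1 and 0.49 without IgG replicate 2.

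Calb1 (chromosome 4, 15881264 to 15908064) encodes the calcium buffer calbindin, which is abundant in granule cells and is also made by part of the CA1 pyramidal cells and by interneurons. Levels were 51.2 and 43.2 CPM in the KIF5C IP pair, against 50.4 and 52.7 CPM in the IgG libraries. KIF5C IP 1 lay between the IgG libraries and KIF5C IP 2 below both. The log2 fold change was -0.12 (SE 0.21, adjusted p = 0.777 in edgeR), which leaves Calb1 within the spread between libraries.

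**Figure D2:**
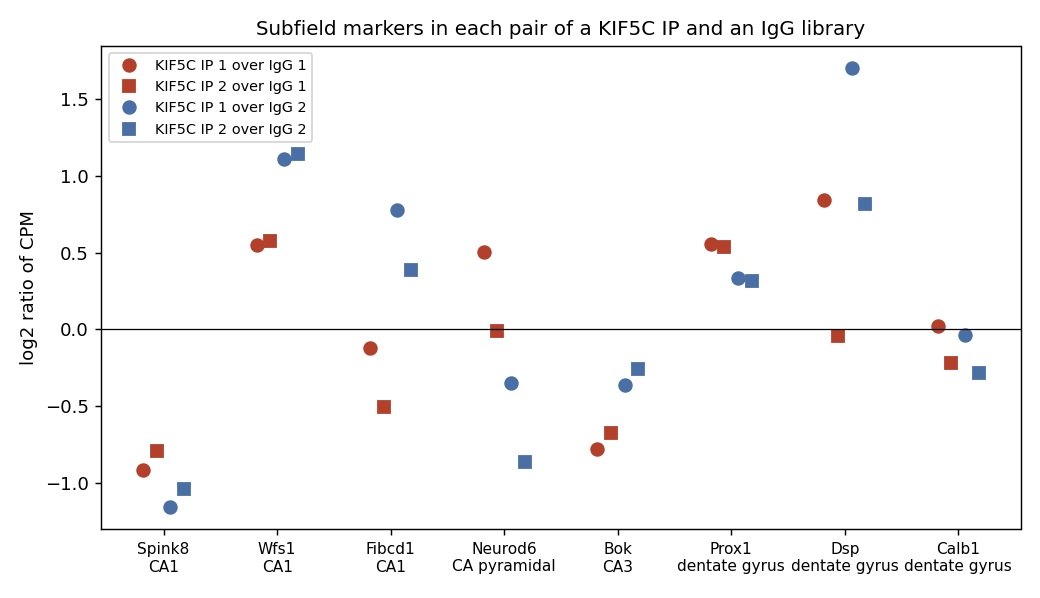
For each of the 8 subfield markers, points give the log2 ratio of CPM for the 4 possible pairings of a KIF5C IP library with an IgG library, coloured by the IgG library and shaped by the KIF5C IP library. Spink8 is negative in all 4 pairs (-1.16 to -0.79) and Wfs1 positive in all 4 (0.55 to 1.14), while Fibcd1 changes sign with the IgG library used. Neurod6 is positive only for KIF5C IP 1 over IgG 1 (0.50).

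Set side by side, the fold changes of the subfields overlapped. The median log2 fold change was 0.08 for the 3 CA1 markers, with a range of -0.97 to 0.81, and 0.43 for the 3 dentate gyrus markers, with a range of -0.12 to 0.82. The difference of the medians, CA1 minus dentate gyrus, was -0.36, smaller than the range within CA1. It was 0.27 without IgG replicate 1, so its sign rested on that library, and -0.78 without IgG replicate 2. As a description of each library, the mean log2 CPM of the CA1 markers minus that of the dentate gyrus markers was -0.20 and 0.11 in the KIF5C IP pair, against 0.44 and 0.23 in the IgG libraries. Both KIF5C values were lower than either IgG value. How often such an order arises between other gene sets was not computed, so the order is not read as a result about the subfields. No p is given for this score, because the members were chosen with results of these data known.

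Levels can be compared between genes only per length, here as CPM per kilobase of the longest annotated transcript. In the KIF5C libraries Bok was highest at 32.8 ± 1.60, followed by Neurod6 at 27.8 ± 6.94, Fibcd1 at 26.2 ± 4.96 and Wfs1 at 23.1 ± 0.314 CPM per kilobase (SD, n = 2 each). These 4 overlapped from neighbour to neighbour. Spink8 (12.6 ± 0.751), Prox1 (11.9 ± 0.139) and Calb1 (11.2 ± 1.34) formed a lower step, in which Prox1 and Calb1 overlapped, and Dsp was lowest at 2.82 ± 1.19 CPM per kilobase. In the IgG libraries the order began with Bok at 47.4 ± 9.62, Neurod6 at 32.4 ± 13.1, Spink8 at 24.9 ± 3.0 and Fibcd1 at 24.8 ± 10.5 CPM per kilobase, again with overlap between neighbours. Wfs1 (13.1 ± 3.59) and Calb1 (12.2 ± 0.382) overlapped below them, and Prox1 (8.79 ± 0.952) and Dsp (1.58 ± 0.647) came last. Spink8 thus stood below Wfs1 in the KIF5C order and above it in the IgG order.

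By description, the fold changes of the members went with the length of the message, though not in strict order. Spink8, the lowest, has the shortest longest transcript at 768 nt, Bok has 1468 nt and Neurod6 2150 nt, and all 3 had negative values. In the middle of the lengths the values were mixed, at 0.81 for Wfs1 (3787 nt), -0.12 for Calb1 (4222 nt) and 0.08 for Fibcd1 (4751 nt). Prox1 (7913 nt) and Dsp (9592 nt), the longest, were at 0.43 and 0.82, so Wfs1 lay level with Dsp and above Prox1. Across the 8 genes, Pearson's r between the log2 fold change and the log2 length was 0.88 and Spearman's rho was 0.86, given without a p because the genes share the same 4 libraries and are not replicates.

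The same direction, with a weaker relation, was present in the rest of the table. Over 13943 genes tested with an annotated length r was 0.22, and over 36 other subfield markers it was 0.27. Genes with transcripts up to 1000 nt had a median log2 fold change of -0.39, with 16 higher and 41 lower of 710, whereas genes above 8000 nt had a median of 0.09, with 39 higher and 2 lower of 888. Base composition did not order the members: r with GC content was 0.20 over the 8, against 0.31 over all genes with a value. Bok, at 61.0% G and C, and Neurod6, at 41.9%, both had negative values. The difference between the members' r and that of all genes was not tested.

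With the offset for GC content and length none of the 8 passed in edgeR, beside 495 of 14357 genes called (3.45%), and 3 had an unadjusted p under 0.05, beside 20.7% of all genes. A count of 0 of 8 is near that share and is no result about the members. The log2 fold changes were then 0.53 for Wfs1 (adjusted p = 0.107), 0.49 for Dsp (0.304), 0.37 for Prox1 (0.244) and -0.63 for Bok (0.0616). The direction of Spink8, Bok, Wfs1, Prox1 and Dsp was the same as without the offset, and that of Fibcd1 (-0.27), Neurod6 (0.19) and Calb1 (0.26) turned.

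**Figure D3:**
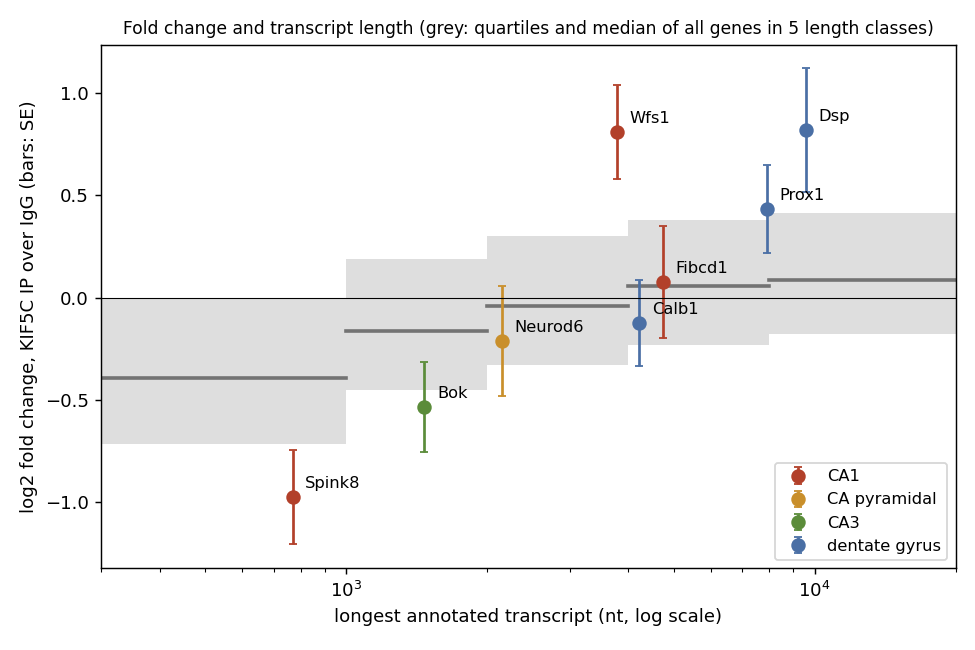
Points give the log2 fold change, KIF5C IP over IgG, of each subfield marker against the length of its longest annotated transcript in nt on a log axis, with bars for the SE and colours for the subfield, and grey steps give the median and quartiles of all genes tested in 5 length classes. The 3 shortest markers (Spink8, Bok, Neurod6) lie below 0 and the 2 longest (Prox1, Dsp) above it, while the median of all genes runs from -0.39 in the shortest class to 0.09 in the longest.

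Other markers of the hippocampal subfields were read from the same fit. Of 37 tested, 0 passed in edgeR, beside 4.07% of all genes tested. In DESeq2, where it gave an adjusted p, 0 passed, beside 7.38% of its genes. With shares this small, 0 of 37 is no result about these markers. At an unadjusted p under 0.05 in edgeR the count was 4, beside 21.5% of all genes. Their median log2 fold change was 0.01, with 19 positive and 18 negative. Among 4 other CA1 markers, Lefty1, a secreted inhibitor of the TGF-beta family, came nearest to the threshold at -0.84 (SE 0.25, adjusted p = 0.0672), and Mpped1 was at 0.34 (SE 0.23, adjusted p = 0.411). Of these 4, 2 had positive and 2 negative values, and none passed.

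Among 8 CA2 markers the AMPA receptor auxiliary subunit gene Cacng5 was at 0.47 and Rgs14, a regulator of G protein signalling that marks CA2, at -0.39. Among 7 other CA3 markers the zinc finger gene Plagl1 was at 0.47 (adjusted p = 0.281 in edgeR). The kainate receptor subunit gene Grik4 was at 0.39 (adjusted p = 0.313). Of these 7, 3 were positive and 4 negative, with a median of -0.09, and none passed. Among 10 other dentate gyrus markers the zinc finger gene Glis3 was at -0.49 and the lactase gene Lct at 0.49, and 4 were positive and 6 negative. The dentate gyrus markers outside the members had a median of -0.07, against 0.43 for Prox1, Dsp and Calb1, so the positive median was not shared by a wider list of that subfield.

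Of 5 mossy cell markers the dopamine receptor gene Drd2 was at 1.39 (SE 0.65, adjusted p = 0.226 in edgeR). Its levels were 0.93 and 1.32 CPM in the KIF5C IP pair, against 0.51 and 0.25 CPM in the IgG libraries. These rest on only 18 and 17 counts, against 8 and 2. Calb2, which encodes calretinin, was at 0.42 (adjusted p = 0.333). Of these 5, 3 were positive and 2 negative, and none passed. Of 3 subiculum markers tested, the zinc finger gene Tshz2 was at 0.98 (adjusted p = 0.0899 in edgeR) and Nts, the neurotensin gene, at -0.74 (adjusted p = 0.141). Tshz2 measured 73.5 and 145 CPM in the KIF5C IP pair, against 38.0 and 73.6 CPM in the IgG libraries, with replicate 2 the higher in each group. The remaining subiculum marker, Teddm3, was below the low-count filter.

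**Figure D4:**
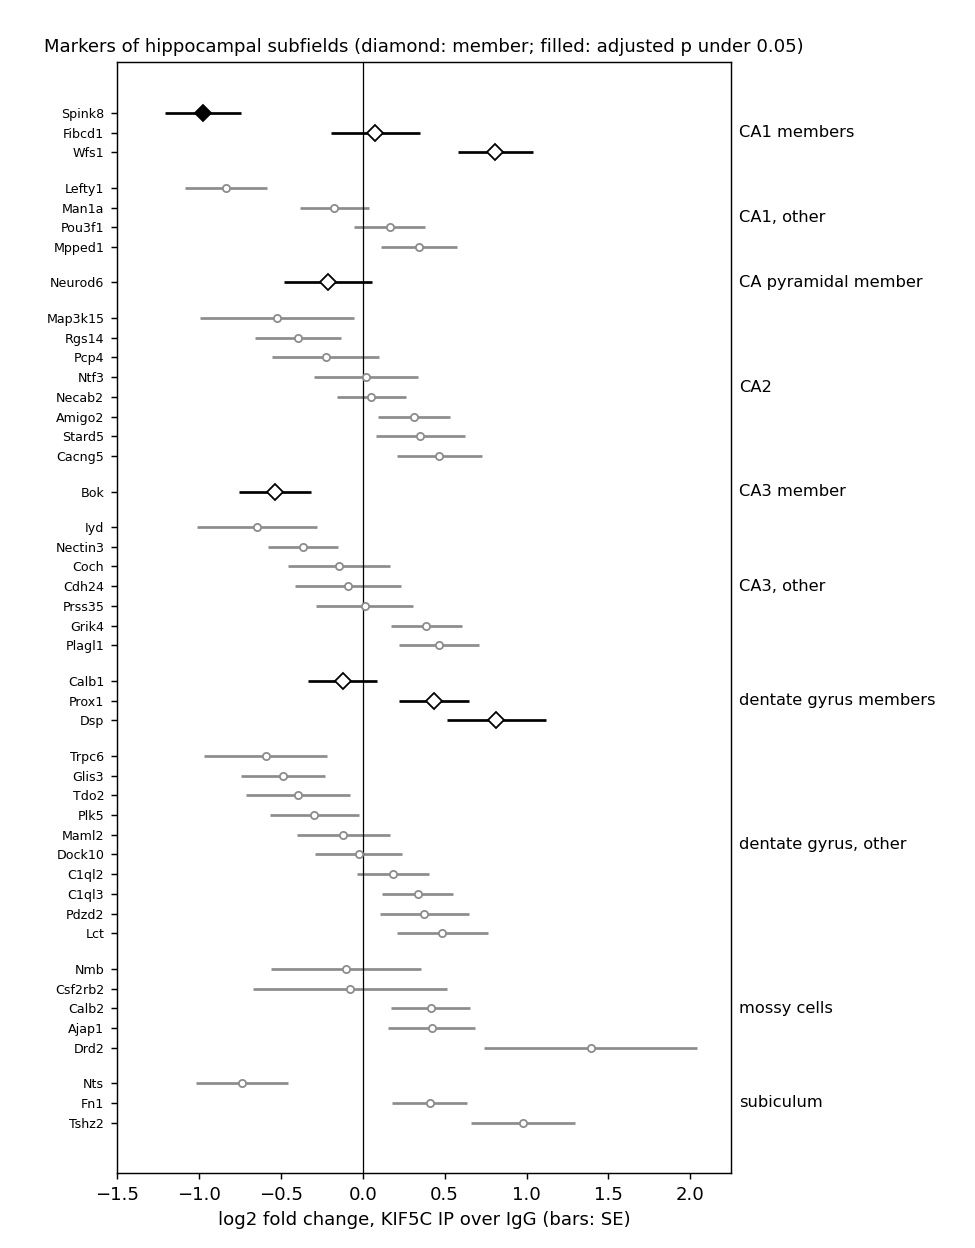
Points give the log2 fold change, KIF5C IP over IgG, with bars for the SE, of the 8 members (diamonds) and of 37 other subfield markers (circles), grouped by subfield. Filled symbols mark an adjusted p under 0.05, which Spink8 alone reaches, and every subfield with 3 or more markers has values on both sides of 0.

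General markers of excitatory neurons and of other cells set the level against which the members stand. Of 8 excitatory markers 7 were positive, with a median of 0.24, against -0.03 over all genes tested. In edgeR 1 passed, beside 4.07% of all genes tested, and 2 had an unadjusted p under 0.05, beside 21.5%. The 1 that passed was Tbr1, a transcription factor gene of glutamatergic neurons, which was higher at 0.92 (SE 0.25, adjusted p = 0.045 in edgeR). Levels were 25.3 and 28.8 CPM in the KIF5C IP pair, against 11.3 and 17.6 CPM in the IgG libraries. The summed level of the 8 was 2220 and 2244 CPM in the KIF5C IP pair, against 1903 and 1626 CPM in the IgG pair. Most of it came from Slc17a7 and Camk2a. Both KIF5C sums were higher than either IgG sum. Among single genes tested 26.3% showed that order, a share that was not computed for sums. Slc17a7 itself overlapped, at 965 and 1046 against 991 and 705 CPM. A positive median was not particular to these markers: it was 0.32 for astrocyte and 0.21 for oligodendrocyte markers, but -0.15 for microglia and -0.12 for endothelial markers.

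Interneurons also make Calb1 and, in part, Prox1. Of 10 interneuron markers none passed in edgeR or DESeq2, beside 4.07% and 7.38% of all genes, so this is no result about them. In edgeR 3 had an unadjusted p under 0.05, beside 21.5% of all genes tested. Their summed level was 552 and 527 CPM in the KIF5C IP pair, against 529 and 460 CPM in the IgG pair, and their median log2 fold change was 0.06. The defining marker Gad2 was at 0.03 and the vesicular GABA transporter gene Slc32a1 at 0.76 (adjusted p = 0.0674). Gad1 was at 0.10 (adjusted p = 0.848 in edgeR), so both Gad genes lay near 0. The part of these cells in the values of Calb1 and Prox1 was not tested.

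Fibcd1 and Prox1 had the highest mean CPM, not scaled by length, among the CA1 and dentate gyrus markers, and genes of like pattern were sought for them. The 3 genes whose levels over the 4 libraries were closest to Fibcd1 were Pde2a, Dgkz and Kcnh3, at distances of 0.0739 to 0.0782 on the mean-centred log2 CPM scale, out of 9024 genes searched. Pde2a measured 294 and 237 CPM in the KIF5C IP pair, against 315 and 174 CPM in the IgG pair, the same low IgG 2 as Fibcd1. Closest to Prox1 were Trim41, Sin3a and Zmat3, at distances of 0.0236 to 0.0364. With 4 libraries such a likeness describes these values and no more.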

How the data were processed

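RNA from 2 KIF5C and 2 IgG immunoprecipitates was sequenced. The authors deposited whole-number counts per gene, not normalized; Salmon, DESeq and GRCm38 are named in the submitters' processing notes, without versions. A second table deposited by the authors gives log2 fold changes with SEs (IgG over KIF5C), a test statistic or score, p-values and adjusted p-values, and a linear fold ratio, per the file headers. The mean normalized signal per gene, made by the authors per the file headers, was not used. The direction was checked: all 734 genes with an edgeR log2 fold change beyond 1 in size have the opposite sign there.

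The tests used edgeR 4.0.16 in R 4.3.3 (TMM, filterByExpr with minimum count 10 and minimum total 15, group as the only term, all 4 libraries), tested on simulated data. The SE is the size of the log2 fold change divided by the square root of F. Alternatives were DESeq2 1.42.0, limma-voom 3.58.1, other scalings and filters, a replicate block, a spline offset for GC content and length, and each library left out. Lengths, GC content and positions come from GENCODE M21 (GRCm38), which held 36148 of 37411 row names. Another 27 rows have date-like names and are not named.

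The members and gene lists were chosen with earlier results of these data known. Named genes are the members, list genes past the threshold or else the 2 smallest p-values of a subfield list, and the 3 genes nearest to the CA1 and the dentate gyrus marker of highest mean CPM (not scaled by length). Pan-excitatory, interneuron and glial genes other than these were picked after their values were seen. A gene of the other CA1 list is not reported here and was left out of the counts over that list.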

Additional observations from a re-analysis of the deposited data

How the results depend on the processing

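Over 13 alternatives Bok and Spink8 stayed negative and Wfs1, Prox1 and Dsp positive. The whole table had 781 genes called with DESeq2 (7.38%, beside 4.07% as reported), 653 with limma-voom and 706 with a mean count of at least 50. Genes called over the whole table, 585 as reported, numbered 5 with library totals (1 higher and 4 lower; the median of all genes shifted by 0.14), 1163 without the low-count filter, 1679 with the replicate block (1162 higher and 517 lower), 1231 at an adjusted p of 0.1, and 143 to 1564 with 1 library left out. Members called, 1 as reported, numbered 2 with DESeq2, limma-voom, a mean count of at least 50 or an adjusted p of 0.1, 3 without the filter or with the replicate block (Spink8, Wfs1 and Dsp), 0 with library totals (also 0 at an unadjusted p under 0.05) or the GC and length offset, and 0 to 3 with 1 library left out. The CA1 minus dentate gyrus difference, -0.36 as reported, was -0.55 without Calb1, -0.64 with the GC and length offset and -0.78 to 0.27 with 1 library left out. The cause was not tested. Turned signs, none past a threshold, were Neurod6 (0.084) and Calb1 (0.046) with library totals, which less the shift of the median were -0.05 and -0.09; Fibcd1 (-0.27), Neurod6 (0.19) and Calb1 (0.26) with the GC and length offset; and, with 1 library left out, Fibcd1 (-0.29 to 0.60), Neurod6 (-0.58 to 0.28) and Calb1 (-0.25 to 0.010). Same-numbered libraries deviated together with a correlation of 0.14. Mitochondrially encoded rows held 14.2% of counts in KIF5C IP 1 and 10.1% in IgG 1, against 33.4% in KIF5C IP 2 and 34.4% in IgG 2. The labels do not say what a number stands for, so whether the numbers pair the libraries cannot be told. A library left out leaves an antibody with 1 library, assumed to vary like the other. Spink8 had 130 to 273 counts and Dsp 85 to 681, so their values carry the most counting error of the members.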

Other observations

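Of 8 oligodendrocyte markers, whose median log2 fold change was 0.21 with 5 positive, Mog, which encodes a myelin surface glycoprotein, was lower at -0.82 (SE 0.21, adjusted p = 0.038 in edgeR), with 42.5 and 45.8 CPM in the KIF5C IP pair, against 77.6 and 78.1 CPM in the IgG pair. The other myelin genes did not pass, and Mag, a myelin adhesion glycoprotein gene, was at 0.64 (SE 0.24, adjusted p = 0.135), so 2 surface proteins of the same sheath had values of opposite sign, as Spink8 and Wfs1 did within CA1. None of 8 astrocyte, 8 microglia and 6 endothelial markers passed in edgeR or DESeq2, beside 4.07% and 7.38% of all genes. Their medians were 0.32, -0.15 and -0.12. In edgeR 1, 0 and 0 of them had an unadjusted p under 0.05, beside 21.5% of all genes tested.

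Of 7 choroid plexus markers, Ttr, which encodes transthyretin, fell by 1.38 on the log2 scale (SE 0.29, adjusted p = 0.0166 in edgeR), with 136 and 99.5 CPM in the KIF5C IP pair, against 400 and 213 CPM in the IgG pair. Ttr was the 1 called, beside 4.07% of all genes tested (0.745% as lower). The other 6 did not pass, and the median of the 7 was -0.02. Among interneuron markers the peptide genes differed in sign: Sst was at 0.70 (adjusted p = 0.0799) and Npy at -0.75 (adjusted p = 0.108), both short of the threshold.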
